A study of Danio rerio with 2 samples.

Results

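The 8 genes described here mark the developing inner ear of the zebrafish: stm, oc90, otomp, tecta and tectb, which encode extracellular matrix proteins of the ear, and pax8, pax5 and eya1, which regulate its formation. They were taken by symbol, ignoring case, and each matched 1 row of the 51544 features in the count table. Messenger RNA was sequenced from head tissue. The cut ran before the otic vesicle, from which the inner ear forms, so the tissue was meant to leave the ear out. 1 library came from embryos labelled rbm24a-/-, AB in strain and 33 hours old (33 hpf), whose rbm24a gene carries an 8 bp TALEN deletion in its first exon. The other library came from wildtype embryos of the same strain and stage. No treatment is given for either, and the number of embryos behind a library is not given in the sources used here.

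With 1 library per group, no difference below has a replicate check and no p-value was computed. Intervals are 95% exact intervals of the counts and cover counting error only. PCR reads are not independent molecules, so they may be too narrow. The table assigned 16667612 reads to features in mutant heads and 14148577 in wildtype heads, and levels are in CPM, the reads scaled to a common total of features. The targeted gene rbm24a had 121 reads in mutant heads and 224 in wildtype heads, a level 2.18-fold lower in mutant heads (interval 1.74 to 2.74).

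The inner ear of fish forms from the otic placode, a thickening of the ectoderm beside the hindbrain that closes into a vesicle. Pax2, Pax5 and Pax8 belong to 1 subfamily of paired-box transcription factors and act in this lineage. Eya proteins act with Six-family factors as transcriptional coactivators in the cranial placodes. The vesicle then secretes a matrix in which calcium carbonate is laid down as otoliths, the stones that fish use for balance and hearing. stm, oc90 and otomp encode proteins of the otolith, and the tectorins encoded by tecta and tectb build the membranes that tether it over the sensory hair cells. pax8 and pax5 are also active at the midbrain-hindbrain boundary and in hindbrain neurons, and eya1 in other cranial placodes, so their reads in a head need not come from the ear. Rbm24a is an RNA-binding protein known from the lens, the heart, muscle and the ear.

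Reads of ear matrix genes were present in both heads, and their make-up differed. By CPM, stm lay above 39.8% of features averaging at least 1 CPM in mutant heads and above 60.5% in wildtype heads. For oc90 these shares were 51.1% and 34.0%, and for tectb 33.6% and 35.6%. otomp and tecta ranked lower in both libraries. The 5 matrix genes together had 501 reads in mutant heads and 499 in wildtype heads, or 30.1 CPM and 35.3 CPM. This sum was 1.17-fold lower in mutant heads (interval 1.03 to 1.33). stm was lower and oc90 higher in mutant heads, each by more than 2-fold, while otomp, tecta and tectb had intervals of the ratio that include 1. In bulk tissue, fewer ear cells and less RNA per ear cell cannot be told apart.

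stm (ENSDARG00000035694) encodes Starmaker, an acidic protein of the otolith that shapes its crystals in zebrafish. It had 131 reads in mutant heads and 269 in wildtype heads, which is 7.86 CPM (interval 6.57 to 9.33) and 19.0 CPM (interval 16.8 to 21.4). Both counting intervals lie apart, and the mutant library was the low one. The level was 2.42-fold lower in mutant heads (interval 1.96 to 3.004), which on the log2 scale, after adding 1 CPM to both levels, is -1.18. A log2 ratio below that of stm was found in 1.96% of all features that averaged at least 1 CPM.

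oc90 (ENSDARG00000001721) encodes otoconin 90, a matrix protein of otoliths and of the otoconia of mammals. It went the other way, with 215 reads in mutant heads and 84 in wildtype heads. Its levels were 12.9 CPM (interval 11.2 to 14.7) in mutant heads and 5.94 CPM (interval 4.74 to 7.35) in wildtype heads, and again the intervals lie apart. The level was 2.173-fold higher in mutant heads (interval 1.68 to 2.83). Its log2 ratio of 1.00 lies at the 2-fold threshold, which it passed with a fold of 2.004 after the pseudocount. A higher log2 ratio was found in 2.22% of features. Beside these 2 differences, genes of the neighbouring hindbrain summed to 105 CPM in mutant heads and 112 CPM in wildtype heads over 15 genes. The largest part came from rfng, at 39.2 CPM in mutant heads and 45.9 CPM in wildtype heads. The parts of fgf3 were 18.0 and 11.8 CPM in mutant and wildtype heads, and those of HOXB3 only 3.06 and 6.01 CPM, so the sum says little about single genes. Hair cell genes summed to 109 CPM in mutant heads and 103 CPM in wildtype heads over 21 genes, mostly from emx2 and the ATOH1 gene, which the brain also expresses. Single genes of both lists were uneven in both directions: HOXB3 was 1.96-fold lower and fgf3 1.52-fold higher in mutant heads, and tmc1 had 3 reads in mutant heads and 18 in wildtype heads. The part of the position of the cut in the differences of stm and oc90 was not tested.

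The remaining matrix genes were close to even between the libraries. otomp (ENSDARG00000040306) encodes otolith matrix protein 1, needed for otolith growth in zebrafish, and had 46 reads in mutant heads and 44 in wildtype heads. Its level was 2.76 CPM in mutant heads and 3.11 CPM in wildtype heads, a ratio of mutant over wildtype of 0.887 (interval 0.574 to 1.37). tectb (ENSDARG00000045268), which encodes beta-tectorin, had 97 and 91 reads in mutant and wildtype heads, or 5.82 and 6.43 CPM, with a ratio of 0.905 (interval 0.673 to 1.22). tecta (ENSDARG00000059558), which encodes alpha-tectorin, had 12 reads in mutant heads and 11 in wildtype heads. Only a large difference in tecta was detectable at this depth, since the interval of its ratio runs from 0.374 to 2.32. These intervals do not show that the genes are equal in mutant and wildtype heads.

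**Figure D1:**
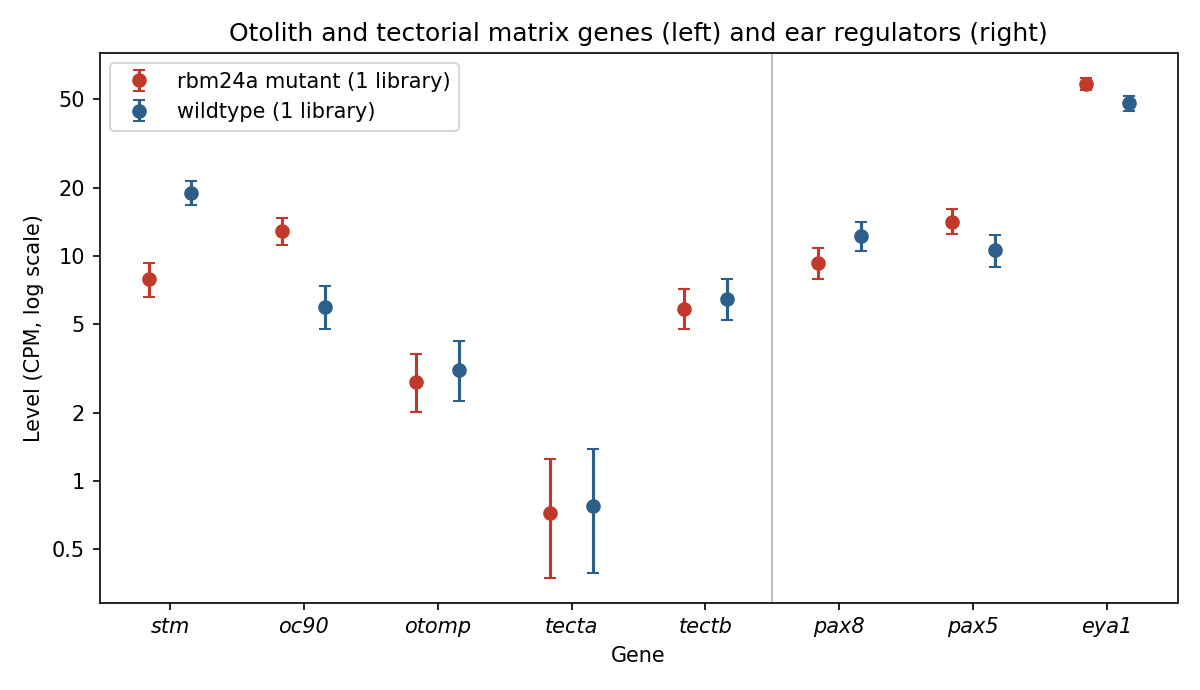
Level of each of the 8 ear genes in CPM on a log axis, in rbm24a mutant heads (red) and wildtype heads (blue). Points are single libraries and bars are 95% exact Poisson intervals of the counts. The intervals lie apart for stm, which was lower in mutant heads at 7.86 against 19.0 CPM. They also lie apart for oc90 (12.9 against 5.94 CPM), eya1 (58.0 against 47.8 CPM) and, narrowly, pax5 (14.2 against 10.6 CPM). These 3 genes were higher in mutant heads.

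The make-up of the matrix gene reads within each library restates these counts without any scaling between libraries. The pair stm and oc90 is given because its levels differed in opposite directions, so its ratio is a description and adds no support. There were 0.609 reads of stm for each read of oc90 in mutant heads and 3.20 in wildtype heads. The ratio was 5.26-fold lower in mutant heads. stm made up 26.1% of the matrix gene reads in mutant heads (Clopper-Pearson interval 22.4% to 30.2%) and 53.9% in wildtype heads (interval 49.4% to 58.3%). For oc90 the shares were 42.9% in mutant heads (interval 38.5% to 47.4%) and 16.8% in wildtype heads (interval 13.7% to 20.4%). tectb held 19.4% and 18.2% of these reads in mutant and wildtype heads, and otomp 9.18% and 8.82%. stm was therefore the matrix gene with the most reads in wildtype heads, and oc90 in mutant heads. These shares are not scaled by length. In mutant heads stm had more reads than tectb but a lower RPKM, 1.62 against 1.83, with overlapping counting intervals.

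**Figure D2:**
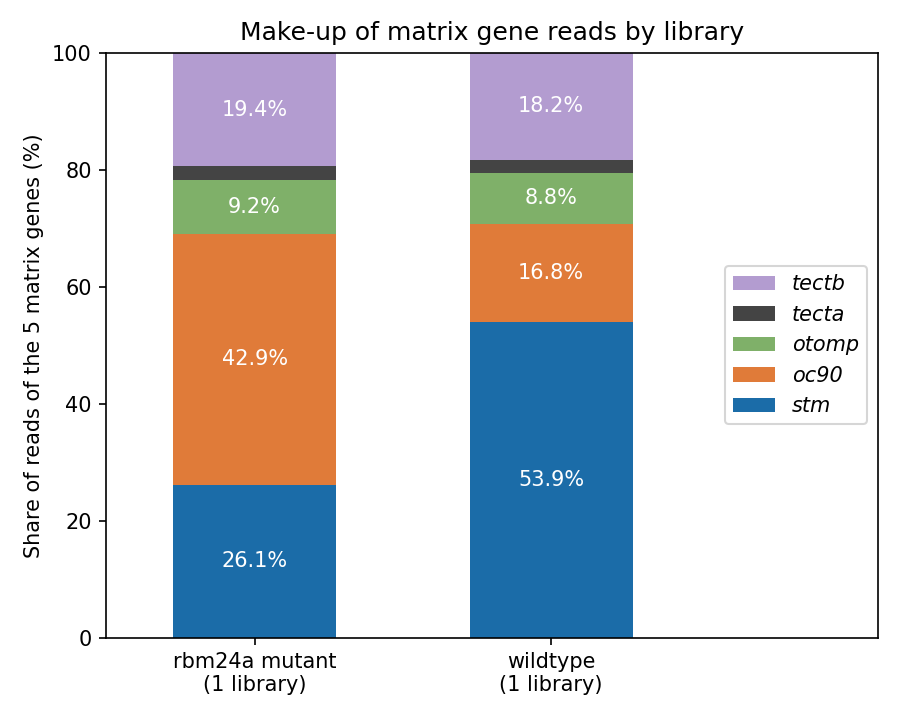
Share of the reads of stm, oc90, otomp, tecta and tectb that each gene took, as stacked bars in percent, in rbm24a mutant heads (501 reads) and wildtype heads (499 reads). stm takes 26.1% in mutant heads and 53.9% in wildtype heads, and oc90 takes 42.9% and 16.8%.

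The same counts can be read relative to tectb and otomp, the matrix genes that were close to even. stm relative to tectb was 2.19-fold lower in mutant heads (interval 1.51 to 3.17), and relative to otomp 2.15-fold lower (interval 1.31 to 3.50). oc90 relative to tectb was 2.401-fold higher in mutant heads (interval 1.61 to 3.58), and relative to otomp 2.45-fold higher (interval 1.46 to 4.08). Of the 28 pairs among the 8 genes, the interval of the change in their ratio left out 1 for 14, of which 11 hold stm, oc90 or both. stm and oc90 against tecta, with its few reads, were among those whose interval holds 1. Pairs share genes and are not independent, and they reuse the counts given above. tectb and otomp were taken because they were close to even in these counts, so these ratios add no support. No share of pairs over all features was computed.

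The 3 regulators differed less between the libraries, each by under 2-fold. Together they had 1359 reads in mutant heads and 999 in wildtype heads, or 81.5 and 70.6 CPM, 1.15-fold higher in mutant heads (interval 1.06 to 1.25). eya1 (ENSDARG00000014259), the coactivator whose loss in the zebrafish dog-eared mutant harms the hair cells, had 967 and 676 reads in mutant and wildtype heads. Its level was 58.0 CPM in mutant heads and 47.8 CPM in wildtype heads, 1.21-fold higher in mutant heads (interval 1.10 to 1.34). pax5 (ENSDARG00000037383), which acts in the utricle and at the midbrain-hindbrain boundary, had 237 reads in mutant heads and 150 in wildtype heads. That is 14.2 CPM and 10.6 CPM, 1.34-fold higher in mutant heads (interval 1.09 to 1.66). pax8 (ENSDARG00000015879), among the first genes active in the otic lineage, had 155 and 173 reads in mutant and wildtype heads. Its level was 9.30 CPM in mutant heads and 12.2 CPM in wildtype heads, 1.31-fold lower in mutant heads (interval 1.05 to 1.64). All 3 log2 ratios, 0.27 for eya1, 0.39 for pax5 and -0.36 for pax8, lie within 2-fold. Such ratios were common, as 27.97% of features had a larger absolute log2 ratio than pax5 and 31.1% a larger one than pax8.

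Of the 8 ear genes, 7 averaged at least 1 CPM, and tecta fell below that filter. Of these 7 genes, 1 was higher by at least 2-fold in mutant heads (oc90), 1 was lower (stm) and 5 lay within 2-fold. Across all 18094 features above the filter, 5.05% lay past 2-fold, 2.22% higher and 2.82% lower in mutant heads. Among the 5163 annotated genes with a mean of 5 to 20 CPM, the range of stm and oc90, it was 4.47%. With so few genes, and with earlier results known when they were chosen, the share of 2 in 7 is a description. The median log2 ratio of the 7 was -0.12, against 0.00 over all features. Both calls end at a pseudocount of 5, where the log2 ratio was -0.90 for stm and 0.71 for oc90. They also end with the authors' RPKM values in place of CPM, again with a pseudocount of 1. Both settings add a larger pseudocount relative to the level. Before it was added, the RPKM values in mutant and wildtype heads were 1.62 and 3.91 for stm and 3.43 and 1.58 for oc90.

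**Figure D3:**
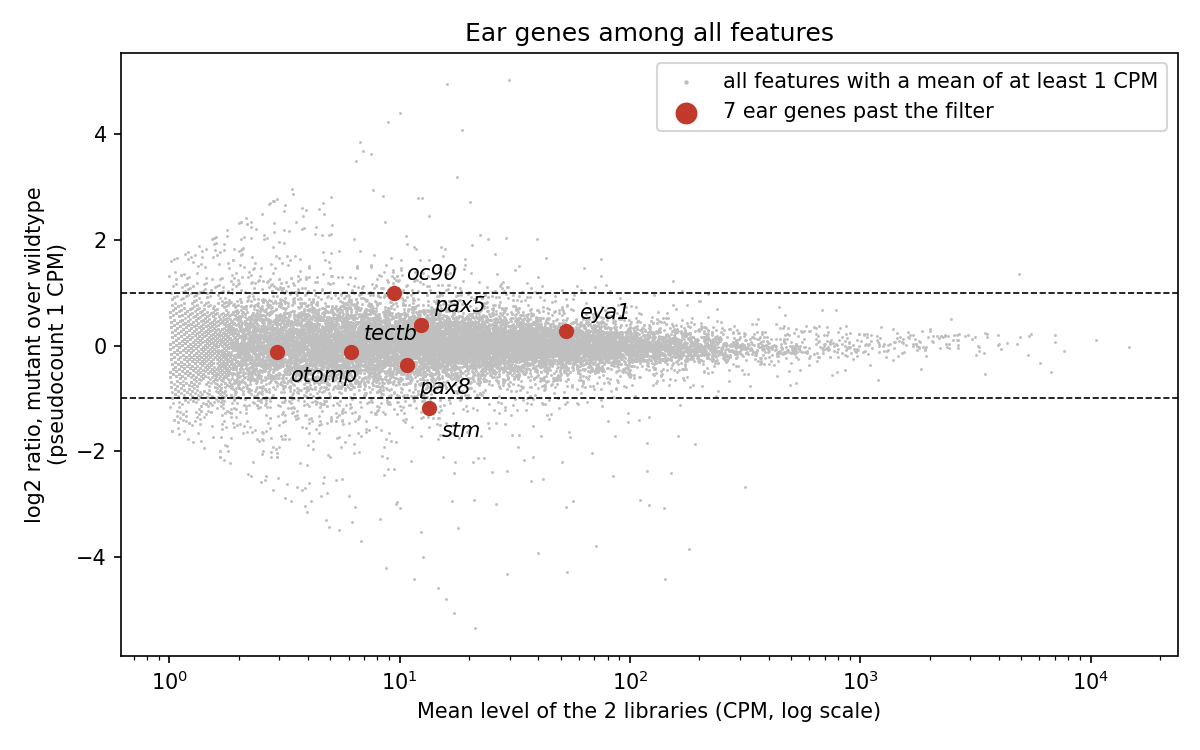
Log2 ratio of mutant over wildtype CPM (pseudocount of 1 CPM) against the mean level of both libraries in CPM on a log axis. Grey points are the 18094 features averaging at least 1 CPM, red points the 7 ear genes above that filter, and dashed lines mark 2-fold. stm at -1.18 lies below the lower line, oc90 at 1.00 on the upper line, and the other 5 between them.

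Reads and CPM of different genes are not scaled by length, so the levels of the ear genes were ordered per length, with the RPKM values of the authors. In the mutant library the order from high to low was pax5 (8.28 RPKM), eya1 (5.50), oc90 (3.43), pax8 (2.11), tectb (1.83), stm (1.62), otomp (1.07) and tecta (0.08). In the wildtype library it was pax5 (6.17 RPKM), eya1 (4.53), stm (3.91), pax8 (2.78), tectb (2.03), oc90 (1.58), otomp (1.20) and tecta (0.08). Within the mutant library, the counting intervals of neighbours along pax8, tectb, stm and otomp overlap. Within the wildtype library the same holds between eya1 and stm and along pax8, tectb, oc90 and otomp. Overlap of such intervals is not a test of a difference, and neighbours that overlap may still differ. The length behind these RPKM values is not given, and the length they imply exceeds the table's own length column for 186 of 4967 well-covered annotated genes, so the order is approximate.

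Reads of neighbouring or overlapping genes could enter these counts, since a strand setting is not given in the sources used here. In the RefSeq gene table of assembly GRCz12tu, another build than the GRCz11 of the files, no gene overlaps oc90, otomp, pax8 or eya1. A long noncoding RNA overlaps stm and another pax5, cntrl overlaps tecta and gucy2g overlaps tectb. cntrl had 401 reads in mutant heads and 246 in wildtype heads, more than tecta in both, so the few reads of tecta are uncertain. gucy2g had 147 and 169 reads in mutant and wildtype heads, more than tectb in both. The reads of tectb are thus uncertain too, also where stm and oc90 were read relative to it. Of the 8 nearest protein-coding neighbours of stm, 6 were matched and above the filter, and their log2 ratios lay between -0.28 and 0.55. For oc90, 5 of 8 could be read in this way, between -0.42 and 0.51, so no measured neighbour of either gene passed 2-fold.

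The wider set of ear genes was compared next, as lists of known genes with counts and medians and no test. Some genes are in more than 1 list. Of all features above the filter, 5.05% lay past 2-fold, so no call or a single call in lists this short says little. Of 18 other transcription factors of the otic placode and vesicle, 15 were matched and measured, none lay past 2-fold and the median log2 ratio was 0.14. dlx3b, a homeobox gene of the preplacodal ectoderm, had the largest ratio, with 763 reads in mutant heads and 373 in wildtype heads (1.74-fold higher, interval 1.53 to 1.97). tbx1 had a log2 ratio of 0.46 and dlx4b 0.45. Whether the reads of dlx3b, tbx1 and dlx4b came from the ear or from other head tissue cannot be told here. eya4, a relative of eya1, was lower in mutant heads with 115 reads against 147 in wildtype heads (1.51-fold lower, interval 1.17 to 1.94). sox2, tfap2a and otx1 had the most reads of this list, and all 3 are also genes of the brain or the skin. Their log2 ratios were 0.28, 0.09 and 0.39.

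Among the relatives of the 3 regulators, pax2a, the Pax2 gene that acts with pax8 in the otic placode, had 568 reads in mutant heads and 496 in wildtype heads, a log2 ratio of -0.04. Its duplicate pax2b had a log2 ratio of 0.34. eya2 had a log2 ratio of 0.12 (interval of the ratio 1.004 to 1.18), and eya3 was close to even at 0.03. Of 12 measured Pax, Eya and sine oculis homeobox relatives none lay past 2-fold, and the list median was 0.05.

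Of 14 other genes of the otolith and the fluid of the ear, 11 were matched and 7 lay above the filter, of which 1 was lower by 2-fold. That gene was cahz, a carbonic anhydrase known from red blood cells, at 7.56 CPM in mutant heads and 36.3 CPM in wildtype heads (4.81-fold lower, interval 3.95 to 5.89). otog, which encodes otogelin, a protein that tethers otoliths, had 160 reads in mutant heads and 93 in wildtype heads (1.46-fold higher, interval 1.12 to 1.91). sparc, hsp90b1 and cdh11 had the most reads and are active in many tissues. Their log2 ratios were 0.23, -0.21 and 0.12. Among the genes of this list below the filter, otop1, a proton channel needed for otoliths, had 7 reads in mutant heads and 15 in wildtype heads. slc26a4 had 2 and 1, and cldnj had 0 and 1. Of 12 measured genes of semicircular canal growth, 1 was past 2-fold, the versican gene vcana, which encodes a matrix proteoglycan, with 21 reads in mutant heads and 66 in wildtype heads (3.70-fold lower, interval 2.24 to 6.37). The list median was 0.08.

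Most sensory hair cell genes had few reads in both libraries. Of 28 genes listed 21 were matched, and 14 of them lay below a mean of 1 CPM. pou4f3, a transcription factor of hair cells, had 0 reads in both libraries, which allows up to 0.18 CPM in mutant heads and 0.212 CPM in wildtype heads at a floor of 3 counts. lhfpl5b had 0 reads in mutant heads and 1 in wildtype heads, and slc17a8, the glutamate transporter of hair cells, had 0 and 3. Of the 7 above the filter, emx2 and the ATOH1 gene are also active in the brain, at 42.8 and 41.2 CPM in mutant heads and 34.2 and 46.8 CPM in wildtype heads. The list median was 0.01 over these 7 genes, and 0.46 over those with a mean of at least 5 CPM. The latter rests only on emx2, the ATOH1 gene, myo6b and cib2. myo6b, which encodes an unconventional myosin needed by hair cells, had 188 reads in mutant heads and 100 in wildtype heads (1.60-fold higher, interval 1.25 to 2.05). cib2, which encodes a calcium-binding partner of the transduction channel, had 109 and 56 in mutant and wildtype heads (1.65-fold higher, interval 1.19 to 2.32). s100t and s100s, calcium-binding proteins of hair cells, had 24 and 27 reads in mutant heads and 27 and 29 in wildtype heads. Below the filter and named after their values were seen, 2 genes were lower: tmc1, a part of the transduction channel, had 3 reads in mutant heads and 18 in wildtype heads (ratio 0.141, interval 0.0267 to 0.485). cdh23, which encodes a tip link cadherin, had 2 and 13 (ratio 0.131, interval 0.0143 to 0.577). These counts are too small for more than these intervals.

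The position of the cut was described with genes of the tissues around the ear. Forebrain and eye genes summed to 634 CPM in mutant heads and 610 CPM in wildtype heads over 14 matched genes, so the labelled head tissue was present in both. Trunk, kidney and thyroid genes were low: their 16 matched genes summed to 8.04 CPM in mutant heads and 9.68 CPM in wildtype heads. Of these only myf5, also a gene of head muscle, averaged at least 1 CPM. It gave most of both sums, with 5.82 CPM in mutant heads and 5.65 CPM in wildtype heads. cdx4 and slc12a3 had 0 reads in both libraries. pax8 is also a kidney and thyroid gene. The kidney genes cdh17 and slc20a1a had 0 and 4 reads in mutant heads and 5 and 18 in wildtype heads. Their intervals of the ratio of mutant over wildtype left out 1, at 0 to 0.926 for cdh17 and 0.0464 to 0.573 for slc20a1a. The interval of every other gene of this list with reads includes 1. The thyroid gene tg had 3 reads in mutant heads and 4 in wildtype heads.

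Hindbrain genes differed unevenly. The rows for HOXB4 and HOXD4, genes whose expression begins behind the ear, had 0 reads in both libraries. Other genes of the list also had few reads. The EGR2 row had 7 reads in mutant heads and 8 in wildtype heads, egr2a had 1 and 0, and HOXD3 had 1 and 5. HOXB3, active in the hindbrain from the level of the ear backwards, had 51 reads in mutant heads and 85 in wildtype heads (1.96-fold lower, interval 1.37 to 2.84), and hoxb1a had 17 and 31 (2.15-fold lower, interval 1.15 to 4.14). The HOXA3 gene, of the same paralog group as HOXB3, had 31 reads in mutant heads and 16 in wildtype heads (log2 ratio 0.42, interval of the ratio 0.873 to 3.22). mafba, a segment gene of the hindbrain at the ear, had 195 and 152 (log2 ratio 0.11, interval of the ratio 0.876 to 1.36). hoxa2b, whose expression begins further forward, was close to even at 129 and 104 reads (log2 ratio 0.07, interval of the ratio 0.807 to 1.38). The intervals of HOXA3, mafba and hoxa2b all include 1. The list had a median of -0.12 over 10 genes above the filter, 4 above 0 and 6 below. Over those with a mean of at least 5 CPM the median was 0.02. fgf3, a signal from the hindbrain that helps induce the ear, had 300 reads in mutant heads and 167 in wildtype heads (1.52-fold higher, interval 1.26 to 1.85), and gbx1 was at a log2 ratio of -0.55. Where the interval left out 1, HOXB3, hoxb1a, gbx1 and rfng were lower in mutant heads and fgf3 was higher.

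Midbrain-hindbrain boundary genes, set beside pax5 and pax8, were mostly somewhat higher in mutant heads. Of 14 above the filter none lay past 2-fold, 10 were above 0 and 4 below, and the median log2 ratio was 0.16. All 15 matched genes summed to 566 CPM in mutant heads and 469 CPM in wildtype heads, a ratio of 1.21, beside 1.34 for pax5 and 0.761 for pax8. her5, a boundary repressor, had 87 reads in mutant heads and 36 in wildtype heads (2.05-fold higher, interval 1.38 to 3.12), with a log2 ratio of 0.81 after the pseudocount. fgf17, below the filter, had 20 reads in mutant heads and 4 in wildtype heads (4.24-fold higher, interval 1.42 to 17.1). spry4, a feedback inhibitor of Fgf signalling, had a log2 ratio of 0.66, and en2b 0.47. Other cranial placode genes, set beside eya1, had a median of 0.12 over 13 genes, with dlx5a at 0.69, neurog1 at -0.50 and neurod1 at -0.38.

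**Figure D4:**
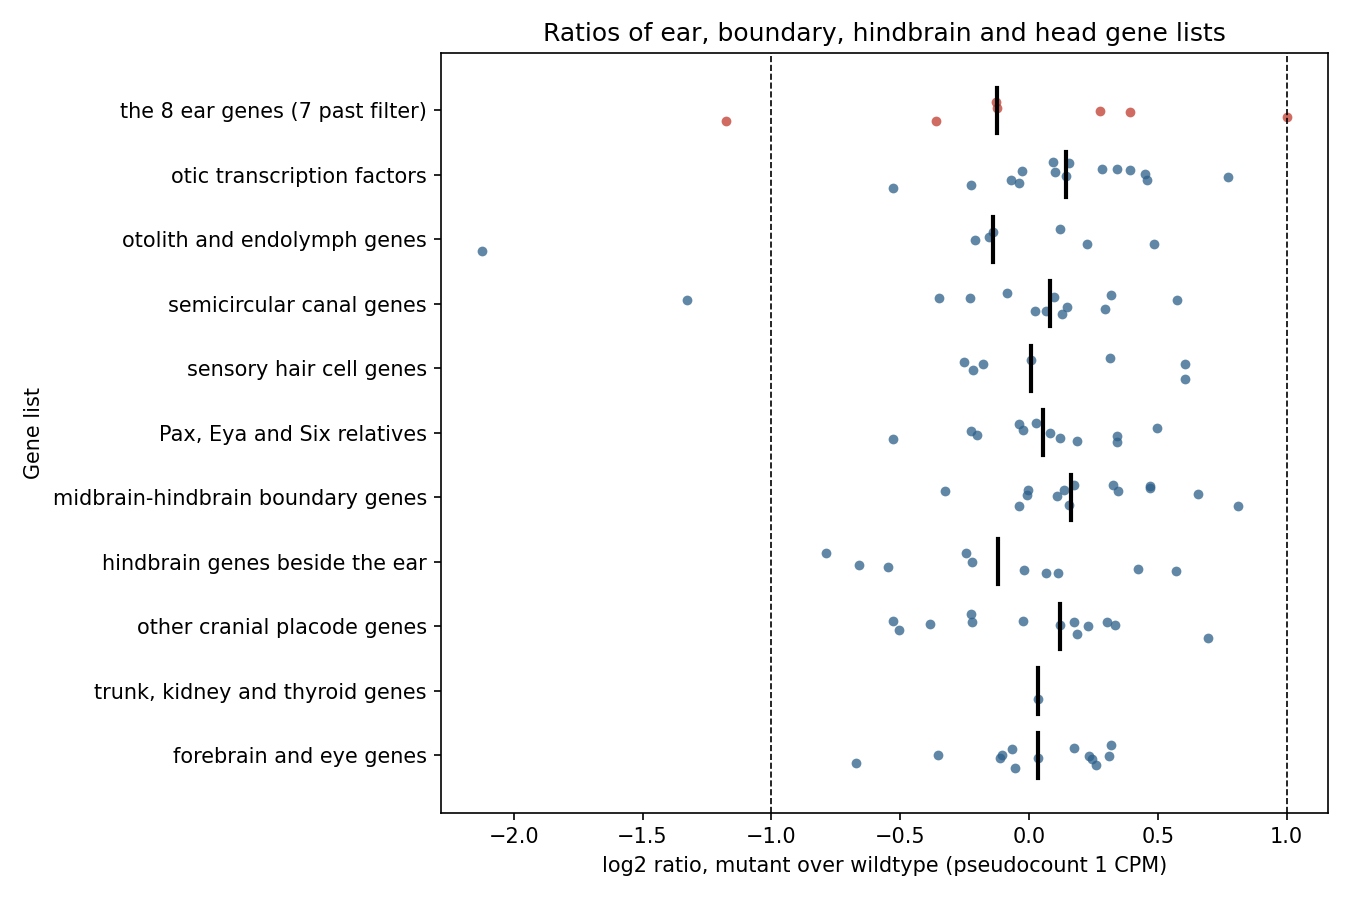
Log2 ratio of mutant over wildtype CPM (pseudocount of 1 CPM) for each gene with a mean of at least 1 CPM, by list. Red points are the ear genes, blue points the genes of the other lists, vertical bars the medians and dashed lines 2-fold. The medians lie between -0.14 and 0.16, and outside the ear genes only cahz at -2.12 and vcana at -1.33 pass 2-fold.

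None of the 8 ear genes is among the 37 genes in the authors' deposited table of their comparison. The lowest wildtype FPKM in the authors' deposited table is 21.6, above the RPKM of every ear gene in either library. By CPM the lowest mean of both libraries in that table is 17.2, and eya1 lies above it at a mean of 52.9 CPM. The other ear genes average below it.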

How the data were processed

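Per the labels' protocols, TruSeq RNA libraries were read as pairs of 100 bp; the protocols speak of several independent samples, and 2 libraries were analysed here. The submitters' processing notes name HISAT2 2.0.1, HTSeq 0.6.1, DESeq2, cutadapt and bcl2fastq, and build GRCz11. What each tool did, which annotation was used and whether counting used strand is not given in the sources used here. The deposited table of all features holds raw read counts without normalisation and RPKM values by the authors, scaled by the summed counts. Its length column is close to a genomic span, and the RPKM of annotated genes rest on another, mostly shorter length. The authors' table of their comparison holds FPKM values and counts equal to these for all 37 genes. No column of other samples was present (0).

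Counts were scaled to CPM of the column sum. Ratios are mutant over wildtype, as log2 with a pseudocount of 1 CPM for features averaging at least 1 CPM, and past 2-fold means at least 1 or at most -1 on that scale, which understates differences of low genes. Folds of single genes are CPM ratios without a pseudocount. Intervals came from SciPy 1.17.1: Poisson for counts, Clopper-Pearson for shares and ratios, and the conditional odds ratio for ratios of gene pairs. The steps were tested on simulated data with counting error only and with planted changes well past 2-fold. Variation between libraries and calls near the threshold were thus not tested. TMM factors (edgeR 4.0.16) and median-ratio size factors (DESeq2 1.42.0) served only as alternative scalings.

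The ear genes and the 10 lists (159 symbols) were chosen with earlier results of these data known. Named are the ear genes, rbm24a, and examples from up to 4 genes a list with the largest absolute log2 ratio and the 3 with the highest level; pax2a, eya3, s100s, hoxa2b, HOXA3, mafba, fgf17, tmc1, cdh23, slc20a1a and the genes given for counts at or near 0 were chosen after seeing their values. Of the symbols, 43 matched the names table exactly, 49 ignoring case and 23 without a final a or b. Where several rows bore 1 symbol they were told apart by span against RefSeq (within 5%, other rows over 15% off; 20 symbols, and likewise rbm24a), a step added after seeing the files, and 21 symbols could not be told apart. Rows matched without the final letter or by span may belong to the other paralog. Among the genes named, this holds for dlx3b, dlx5a, mafba, myo6b, en2b, pax2a, pax2b and slc20a1a. Levels by coding length were planned but no coding lengths were used here.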

Additional observations from a re-analysis of the deposited data

How the results depend on the processing

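No paired analysis was possible because neither genotype has more than 1 library, and no library could be left out. The direction of stm, oc90, pax8, pax5 and eya1 was the same under every pseudocount, scaling and unit run, with log2 ratios of -1.26 to -0.90 for stm, 0.71 to 1.11 for oc90, -0.39 to -0.27 for pax8, 0.30 to 0.42 for pax5 and 0.23 to 0.31 for eya1. TMM and median-ratio scaling kept 1 ear gene higher and 1 lower. With a pseudocount of 5 the log2 ratio was -0.90 for stm and 0.71 for oc90, so 0 ear genes were past 2-fold in either direction (97 features higher and 164 lower in mutant heads). With deposited RPKM and a pseudocount of 1, stm was at -0.91, and 0 ear genes were higher and 0 lower (188 and 242 features); both settings add a larger pseudocount relative to the level. A pseudocount of 0.1 gave 672 features higher and 830 lower, against 402 and 511 as reported, and a mean of at least 5 CPM gave 171 and 243, with fewer features compared. Ordered by RPKM, 2 of 28 gene pairs in mutant heads and 3 in wildtype heads stood otherwise than by CPM; with the length column it was 10 and 8. Of 240 list values under these alternatives and without genes told apart by span (chosen after seeing the data), 8 moved: a median by over 0.1 in log2 or a count by over 1.5 times. Depth limits tecta, most hair cell genes and most trunk, kidney and thyroid genes, which lie below the filter.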
